A study of Homo sapiens with 16 samples.

Results

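In the human multiple myeloma line MM1.S, 10 genes were followed, namely CEP70, FZD4, TLE1, SERTAD2, RGCC, TGFBR2, TRIM31, FAR2, FAIM and AKR1C3. They were chosen because an Illumina bead array reported more of their RNA after 4 h of dexamethasone, in total RNA or in a polysome pool, than the low amount it reported without the hormone; no cut-off in numbers was part of that choice. All 10 genes were on the array and all 10 passed the filter on dim probes, out of 10163 genes tested, and they are read by 18 of its 47323 probes. The values that chose them are the differences between 4 h and 0 h, so these differences are given below as a description. Calls of the 10 genes in the fit over all genes are listed beside the share of all genes called, and nothing is read from them.

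Cells growing in log phase in RPMI medium with 10% FBS received 1 uM dexamethasone for 4 h, or for 0 h as the untreated reference. From both, total RNA was extracted with TriZol, and RNA was collected from 3 pools (A, B and C) of fractionated polysomes, which are mRNAs loaded with ribosomes and separated in sucrose. This gave 4 treated groups (4 h total RNA, pool A, pool B and pool C) and 4 untreated groups of the same kinds, with 2 arrays in each of the 8 groups and 16 arrays in all. The labels do not say where in the gradient pools A, B and C were cut, and nothing in them says that the arrays of a group came from separate cultures, so the spread between them may be technical. Each group holds an array whose data column has the prefix N and an array with the prefix X; what the prefix stands for is unknown here, and array values are written below with N first and X second.

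Dexamethasone is a synthetic glucocorticoid used to treat myeloma. It binds the glucocorticoid receptor, a transcription factor that then enters the nucleus and binds DNA, often at a palindrome of paired AGAACA-like half-sites, and raises or lowers transcription of nearby genes. An mRNA whose amount in the cell rises may or may not load ribosomes to the same degree, which is what polysome pools are collected to show. The 10 genes do not form a pathway. FZD4 and TGFBR2 are receptors at the cell surface, for Wnt proteins and norrin and for TGF-beta. TLE1 is a corepressor that partners the TCF/LEF factors at the end of the Wnt pathway, and SERTAD2 is a coregulator of E2F-driven transcription. RGCC is a cell cycle regulator that binds CDK1, CEP70 is a centrosomal protein that binds gamma-tubulin, TRIM31 is a RING ubiquitin ligase and FAIM inhibits apoptosis through Fas. The remaining genes encode enzymes: FAR2 reduces fatty acyl-CoA to fatty alcohol, and AKR1C3 reduces ketosteroids and prostaglandins.

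Between 26.1% and 31.3% of all probes were detected on an array (detection p under 0.01), with median intensities of 129.4 to 176.6. The arrays of a group correlated at r = 0.966 to 0.991 over the genes tested. All 9 plasma cell markers examined (SDC1, TNFRSF17, XBP1, IRF4, PRDM1, MZB1, JCHAIN, SLAMF7 and CD38) were detected on all 16 arrays, and all 4 T cell, 5 epithelial and 4 fibroblast markers were detected on none. Of 4 myeloid markers, FCGR3A was detected, on 5 arrays. On the 4 untreated X arrays TSC22D3 and FKBP5, known targets of the glucocorticoid receptor, stood apart in the direction of the hormone. They were higher there than on the untreated N array in all 4 kinds of RNA, by a mean of 2.03 and 1.24 log2 units. Over all genes the median of this X minus N difference was -0.02. Of the 10 genes, FAR2, FAIM and SERTAD2 were higher on the untreated X array in all 4 kinds, by a mean of 1.06, 0.69 and 0.32, as were 12.1% of all genes. The other genes were not higher on it in all 4 kinds, with means from -0.02 for CEP70 to 0.31 for TLE1 (0.03 for RGCC and 0.06 for FZD4). For FAR2 and FAIM, the differences below are given with and without the untreated X arrays. Over all 40 differences of the 10 genes between 4 h and 0 h, leaving those arrays out kept every sign and gave a median of 1.73 log2 units, beside 1.64 with them.

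The sequences before the genes' start sites are shown first, because the genes were gathered by a shared response and their start regions are of unlike kinds. RefSeq (GRCh38.p14) gave 14 windows of 250 bases immediately upstream of a start site for the 10 genes, with 2 windows for TGFBR2, FAR2, FAIM and AKR1C3. Capitals in the lines below mark the letters of 4 motifs found on either strand, and matches that overlap run together. The first motif is AGAACA, the half-site of a glucocorticoid receptor element. The second is TATAAA, the letters of a TATA box. The CCAAT box and the GC box (GGGCGG) are the other two. Of the windows printed, those of FZD4 and CEP70 are rich in CG pairs. Those of TRIM31 and AKR1C3 hold TATAAA on the strand opposite the gene, where the printed line reads TTTATA. The printed windows of TGFBR2 and FAR2 hold a half-site.

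FZD4 (chr11:86955396-86955645, minus strand): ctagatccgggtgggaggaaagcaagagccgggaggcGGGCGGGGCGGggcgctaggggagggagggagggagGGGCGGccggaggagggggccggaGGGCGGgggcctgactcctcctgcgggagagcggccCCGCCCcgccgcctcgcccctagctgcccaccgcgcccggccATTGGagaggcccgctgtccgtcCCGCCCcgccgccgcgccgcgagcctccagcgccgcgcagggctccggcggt
CEP70 (chr3:138594261-138594510, minus strand): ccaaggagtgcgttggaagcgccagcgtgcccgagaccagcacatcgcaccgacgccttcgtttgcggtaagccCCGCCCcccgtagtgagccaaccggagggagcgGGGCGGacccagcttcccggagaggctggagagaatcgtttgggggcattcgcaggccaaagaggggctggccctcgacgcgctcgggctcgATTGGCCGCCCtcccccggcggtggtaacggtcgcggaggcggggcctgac
TRIM31 (chr6:30113091-30113340, minus strand): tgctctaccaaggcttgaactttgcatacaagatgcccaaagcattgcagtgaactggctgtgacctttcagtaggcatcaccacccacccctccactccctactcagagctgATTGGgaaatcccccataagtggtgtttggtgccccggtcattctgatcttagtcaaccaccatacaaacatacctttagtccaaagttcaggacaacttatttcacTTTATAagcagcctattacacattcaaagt
AKR1C3 (chr10:5048531-5048780, plus strand): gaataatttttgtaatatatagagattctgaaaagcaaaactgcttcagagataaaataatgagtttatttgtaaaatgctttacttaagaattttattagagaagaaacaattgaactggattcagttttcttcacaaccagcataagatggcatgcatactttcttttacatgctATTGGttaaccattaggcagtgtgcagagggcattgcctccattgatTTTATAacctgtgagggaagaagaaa
TGFBR2 (chr3:30606106-30606355, plus strand): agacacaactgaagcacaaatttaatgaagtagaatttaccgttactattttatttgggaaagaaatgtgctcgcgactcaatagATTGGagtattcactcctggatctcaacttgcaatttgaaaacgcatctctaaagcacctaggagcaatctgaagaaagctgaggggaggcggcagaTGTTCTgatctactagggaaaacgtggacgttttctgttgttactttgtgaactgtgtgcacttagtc
FAR2 (chr12:29223416-29223665, plus strand): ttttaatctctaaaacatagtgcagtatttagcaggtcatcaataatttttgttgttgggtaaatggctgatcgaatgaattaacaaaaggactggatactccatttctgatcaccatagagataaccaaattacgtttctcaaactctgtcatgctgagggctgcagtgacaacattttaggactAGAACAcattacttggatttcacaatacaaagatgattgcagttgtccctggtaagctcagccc

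The number of CG pairs was 33 in the FZD4 window, 29 in the CEP70 window and 42 in the SERTAD2 window, but 1 in the TRIM31 window and 0 in both AKR1C3 windows. Over 35116 windows of this length the median was 11, with quartiles of 3 and 23. AGAACA was found 68 bases before the first TGFBR2 start and 64 bases before the second FAR2 start, so in 2 of 14 windows, against 12.4% of all windows. The 15-base palindrome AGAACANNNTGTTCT was in none of the 14 windows, and in 0.00285% of all windows. TATAAA lay 30 bases before the TRIM31 start and 26 bases before the first AKR1C3 start, on the opposite strand (2 of 14 windows, against 10.7% of all). CCAAT was in 8 of 14 windows (32% of all) and GGGCGG in 8 of 14 (42.6% of all). A match describes these letters alone, and receptor binding was not measured here.

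After 4 h of dexamethasone the mean of each of the 10 genes was above its 0 h mean in total RNA and in all 3 pools. Both treated arrays lay above both untreated arrays in 37 of the 40 comparisons of a gene in a kind of RNA; the exceptions were TLE1 in pools A and B and TRIM31 in pool C. That is 10 of the 10 genes in total RNA, where 21.6% of all genes showed it, and 9 in each pool, where 22.9%, 16.2% and 17.6% of all genes did in pools A, B and C. The median difference of the 10 genes was 1.58 log2 units in total RNA, 2.28 in pool A, 1.63 in pool B and 1.35 in pool C, beside 0.00, 0.04, -0.01 and 0.01 over all genes tested. With median scaling in place of quantile normalization the median over all genes was 0.22 in pool A and -0.12 in pool B. Of the genes, 7 had their highest difference in pool A and the other 3 (TLE1, SERTAD2 and RGCC) in total RNA, while 8 had their lowest in pool C. This tally depends on the values used: with the median over the probes of a gene 5 genes had their highest difference in pool A (FAR2 and FAIM had theirs in pool B), and in the authors' deposited value table the count in pool A was 6, SERTAD2 and RGCC among them, and 3 had their lowest in pool C. These differences between kinds of RNA were not tested, since the choice of genes used them. In bulk RNA, more RNA in each cell and a larger share of cells that make it cannot be told apart.

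**Figure D1:**
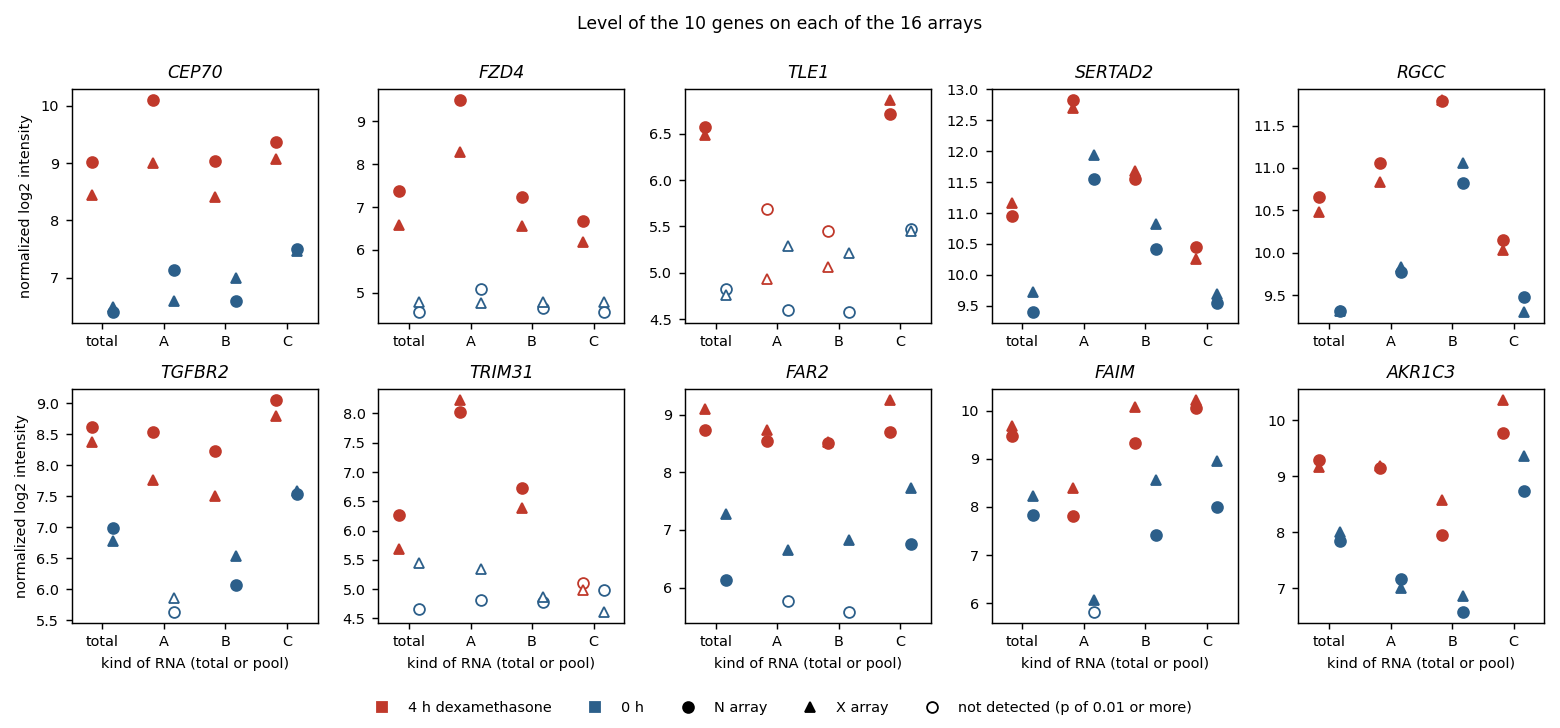
Level of each of the 10 genes on the 16 arrays (vertical axis, log2 of the background-corrected, quantile-normalized intensity), in total RNA, pool A, pool B and pool C (horizontal axis), with 4 h left of 0 h in each kind. Marker shape gives the array (N or X) and open markers are arrays on which the probe was not detected; FZD4, TLE1 and TRIM31 have open markers at 0 h in all 4 kinds.

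By detection at p under 0.01, the label given to the genes, newly induced, held for some of them only. FZD4, TLE1 and TRIM31 were detected on none of the 8 untreated arrays, so they passed the filter on dim probes through treated arrays alone. For TLE1 and TRIM31 this rests on the cut-off. Untreated TLE1 had detection p of 0.0156 and 0.0195 in pool C, and untreated TRIM31 had 0.0117 on the X array of total RNA. The lowest detection p of FZD4 on an untreated array was 0.132. CEP70, SERTAD2, RGCC, AKR1C3, TGFBR2 and FAIM were detected on all 8 untreated arrays by at least 1 probe and FAR2 on 6, while the single probe that stands for the gene below was detected on 6 for TGFBR2 and on 7 for FAIM. SERTAD2 and RGCC were not low without the hormone in any kind of RNA. Their untreated intensities were 840 to 2958 and 567 to 2361, beside array medians of 129.4 to 176.6. In untreated pool C AKR1C3 and FAIM were not low either, with intensities of 863.4 and 1267.2 for AKR1C3 and 546.1 and 967.5 for FAIM. On the treated side, 8 of the 10 genes were detected on all 8 arrays. TRIM31 was detected on 6 and TLE1 on 4. Where no probe of a gene was above background on either array of a group, the fold is given below as a lower bound, the brighter mean against the higher of the array's lowest detected signal and the probe's own signal. Each bound holds for the main background correction and scaling alone. Other processing gave differences under some of the bounds.

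The Wnt and norrin receptor FZD4 was detected in every kind of RNA at 4 h and in none at 0 h. In pool A it read 9.51 and 8.29 at 4 h, against 5.09 and 4.76 at 0 h. In total RNA FZD4 read 7.36 and 6.58 at 4 h, against 4.56 and 4.77 at 0 h. The treated and untreated arrays did not overlap in any kind of RNA. In pool B its level was 7.24 and 6.56 at 4 h, against 4.65 and 4.78 at 0 h. The pool C arrays read 6.68 and 6.18 at 4 h, against 4.54 and 4.78 at 0 h. Within the main processing FZD4 was thus at least 7.45-fold higher at 4 h in pool A and at least 2.41-fold in total RNA. It was at least 2.20-fold higher in pool B and at least 1.70-fold in pool C. The measured log2 differences were 3.98 ± 0.37 in pool A (standard error, limma, 2 arrays a group), 2.31 ± 0.37 in total RNA, 2.19 ± 0.37 in pool B and 1.76 ± 0.37 in pool C. In the authors' deposited value table the pool A difference was 1.79, and with a larger offset in the background correction it was 3.00. The deposited value table gave 0.97 in total RNA, so the 7.45-fold and 2.41-fold bounds do not hold in it. On all 4 treated pairs the N array was the higher, by 0.50 to 1.21 log2 units.

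TGFBR2, the receptor kinase that binds TGF-beta and phosphorylates its type I partner, is read by 3 probes. The probe with the highest mean, which stands for the gene, read 8.62 and 8.38 at 4 h, against 6.99 and 6.78 at 0 h in total RNA. The pool A arrays read 8.53 and 7.76 at 4 h, against 5.63 and 5.86 at 0 h, where this probe was above background on neither untreated array, and differed by 2.40 ± 0.29. The level in pool B was 8.22 and 7.50 at 4 h, against 6.06 and 6.54 at 0 h. Pool C gave 9.05 and 8.80 at 4 h, against 7.54 and 7.58 at 0 h. The treated arrays lay above the untreated arrays in all 4 kinds, by 1.61 ± 0.29 in total RNA, 1.56 ± 0.29 in pool B and 1.37 ± 0.29 in pool C. As for FZD4, the treated N array was above the treated X array in all 4 kinds, by 0.24 to 0.78. A second TGFBR2 probe, detected on all 16 arrays and so on both untreated pool A arrays, was 1.69 higher at 4 h in total RNA, 1.71 in pool B and 1.70 in pool C, but 0.92 in pool A, so the height of the pool A difference rests on the chosen probe. The third TGFBR2 probe was detected on no array.

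TLE1, the Groucho-family corepressor, was detected at 4 h in total RNA and pool C and not in pools A and B. In total RNA it read 6.58 and 6.49 at 4 h, against 4.83 and 4.76 at 0 h. The reading in pool C was 6.72 and 6.87 at 4 h, against 5.47 and 5.45 at 0 h. All 4 of these treated arrays detected TLE1 and the groups did not overlap. In pool A the level was 5.69 and 4.94 at 4 h, against 4.60 and 5.29 at 0 h. In pool B it was 5.45 and 5.07 at 4 h, against 4.58 and 5.21 at 0 h. None of these 8 arrays detected TLE1, and the treated and untreated arrays overlapped, so no fold is given in pools A and B. TLE1 was at least 1.77-fold higher at 4 h in total RNA (1.74 ± 0.29 log2 units as measured) and at least 2.18-fold higher in pool C (1.33 ± 0.29). With the larger offset the pool C difference was 0.90, which lies under that bound. In the deposited value table the differences were 0.66 in total RNA and 0.60 in pool C, under both bounds.

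SERTAD2, which modulates E2F-dependent transcription, and RGCC were detected on all 16 arrays. SERTAD2 read 10.96 and 11.17 at 4 h, against 9.40 and 9.72 at 0 h in total RNA. It read 12.83 and 12.70 at 4 h, against 11.54 and 11.94 at 0 h in pool A. The treated arrays were higher in each kind, by 1.50 ± 0.22 in total RNA and 1.02 ± 0.22 in pool A. In pool B SERTAD2 stood at 11.55 and 11.67 at 4 h, against 10.41 and 10.82 at 0 h. In pool C it read 10.45 and 10.26 at 4 h, against 9.54 and 9.68 at 0 h. The differences there were 0.99 ± 0.22 and 0.74 ± 0.22, so the largest of the 4 was that of total RNA. In the authors' deposited value table that order turned, with 1.26 in total RNA and 1.53 in pool A.

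RGCC, which binds CDK1 and has been described as both a promoter and an inhibitor of cell cycle progression, read 10.66 and 10.48 at 4 h, against 9.32 and 9.31 at 0 h in total RNA. Pool A gave 11.06 and 10.83 at 4 h, against 9.77 and 9.84 at 0 h. The groups were tight: the arrays of a group differed by at most 0.24 log2 units in every kind of RNA. In pool B RGCC read 11.79 and 11.80 at 4 h, against 10.82 and 11.06 at 0 h. The pool C arrays read 10.15 and 10.03 at 4 h, against 9.48 and 9.30 at 0 h. The differences were 1.25 ± 0.18 in total RNA, 1.14 ± 0.18 in pool A, 0.86 ± 0.18 in pool B and 0.70 ± 0.18 in pool C. In the authors' deposited value table the RGCC difference was 1.04 in total RNA and 1.36 in pool A.

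CEP70, a centrosomal protein needed for the organisation of microtubules, was detected on all 16 arrays. It read 9.03 and 8.45 at 4 h, against 6.39 and 6.48 at 0 h in total RNA. The reading in pool A was 10.11 and 8.99 at 4 h, against 7.13 and 6.59 at 0 h. Treated and untreated arrays were well apart in both. In pool B CEP70 read 9.03 and 8.41 at 4 h, against 6.58 and 6.99 at 0 h. Pool C gave 9.36 and 9.07 at 4 h, against 7.50 and 7.47 at 0 h. The differences were 2.30 ± 0.34 in total RNA, 2.69 ± 0.34 in pool A, 1.93 ± 0.34 in pool B and 1.73 ± 0.34 in pool C. The treated N array was above the treated X array in every kind, by 0.29 to 1.11. CEP70 lies next to FAIM on chromosome 3 on the opposite strand, with 0 genes between them in RefSeq. Of the genes on either side of the pair, the ESYT3 probe was detected on no array, and PIK3CB, detected on 7 arrays, differed by -0.00 in total RNA, -0.08 in pool A, -0.37 in pool B and 0.62 in pool C between 4 h and 0 h, none of which passed the test.

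TRIM31, a RING ubiquitin ligase, was detected at 4 h in total RNA, pool A and pool B and not in pool C. In pool A it read 8.02 and 8.23 at 4 h, against 4.81 and 5.34 at 0 h. In pool B it read 6.73 and 6.39 at 4 h, against 4.78 and 4.86 at 0 h. In total RNA TRIM31 read 6.27 and 5.68 at 4 h, against 4.66 and 5.44 at 0 h. All 6 of these treated arrays detected it and none of the untreated arrays did. The reading in pool C was 5.11 and 4.98 at 4 h, against 4.99 and 4.60 at 0 h, with no detection on any of these 4 arrays and overlapping groups, so no fold is given there. TRIM31 was at least 4.36-fold higher at 4 h in pool A, at least 1.74-fold in pool B and at least 1.21-fold in total RNA, with measured differences of 3.06 ± 0.29, 1.74 ± 0.29 and 0.93 ± 0.29. In the authors' deposited value table the pool A difference was 1.18, which lies under the pool A bound. Another TRIM31 probe was detected on no array.

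FAIM, the Fas apoptosis inhibitory molecule, is read by 5 probes. Its chosen probe read 9.48 and 9.67 at 4 h, against 7.84 and 8.22 at 0 h in total RNA. The pool A arrays read 7.80 and 8.39 at 4 h, against 5.81 and 6.06 at 0 h, with 1 of the 2 untreated arrays above background. FAIM in pool B read 9.33 and 10.07 at 4 h, against 7.41 and 8.57 at 0 h. The untreated X array was the higher of its pair in all 4 kinds. In pool C FAIM read 10.06 and 10.22 at 4 h, against 7.99 and 8.94 at 0 h. The differences were 1.55 ± 0.39 in total RNA, 2.16 ± 0.39 in pool A, 1.71 ± 0.39 in pool B and 1.68 ± 0.39 in pool C. Without the untreated X arrays they were 1.74, 2.29, 2.29 and 2.15. The other probes of FAIM put the pool A difference lower: the probe detected on 14 arrays gave 0.73, that detected on 7 arrays 0.79 and that detected on 2 arrays 0.16. In pool B the same 3 probes gave 1.84, 1.48 and 1.96, and the remaining probe was detected on no array.

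FAR2, a reductase of peroxisomes that turns fatty acyl-CoA into fatty alcohol, read 8.74 and 9.10 at 4 h, against 6.14 and 7.28 at 0 h in total RNA. Pool A gave 8.54 and 8.73 at 4 h, against 5.76 and 6.65 at 0 h. The untreated X array was above the untreated N array by 1.06 log2 units on average over the 4 kinds, and FAR2 was detected on 1 of the 2 untreated arrays in pools A and B. In pool B FAR2 read 8.51 and 8.53 at 4 h, against 5.57 and 6.82 at 0 h. In pool C it read 8.71 and 9.26 at 4 h, against 6.76 and 7.72 at 0 h. The treated arrays were nevertheless above both untreated arrays in each kind, by 2.21 ± 0.46 in total RNA, 2.43 ± 0.46 in pool A, 2.32 ± 0.46 in pool B and 1.74 ± 0.46 in pool C. Set against the untreated N arrays alone, these differences were 2.78, 2.87, 2.95 and 2.23. Another FAR2 probe, detected on 10 arrays, was higher at 4 h by 1.51 in total RNA, 1.27 in pool A, 1.73 in pool B and 1.90 in pool C, with pool A the lowest of the 4.

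AKR1C3, an aldo-keto reductase that makes active androgens and prostaglandins from their ketone precursors, was detected on all 16 arrays. It read 9.28 and 9.15 at 4 h, against 7.84 and 7.996 at 0 h in total RNA. The reading in pool A was 9.14 and 9.18 at 4 h, against 7.17 and 7.01 at 0 h. The arrays of a pair differed by at most 0.16 in these 4 groups. In pool B AKR1C3 read 7.96 and 8.56 at 4 h, against 6.57 and 6.86 at 0 h. The pool C arrays read 9.77 and 10.36 at 4 h, against 8.74 and 9.36 at 0 h. The differences were 1.30 ± 0.27 in total RNA, 2.07 ± 0.27 in pool A, 1.55 ± 0.27 in pool B and 1.01 ± 0.27 in pool C. AKR1C3 has close paralogs, and a probe can bind the transcripts of several. The AKR1C1 probe was detected on no array, the 6 AKR1C2 probes on at most 1 array each, and the AKR1C4 probe that passed the filter on 6 arrays.

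**Figure D2:**
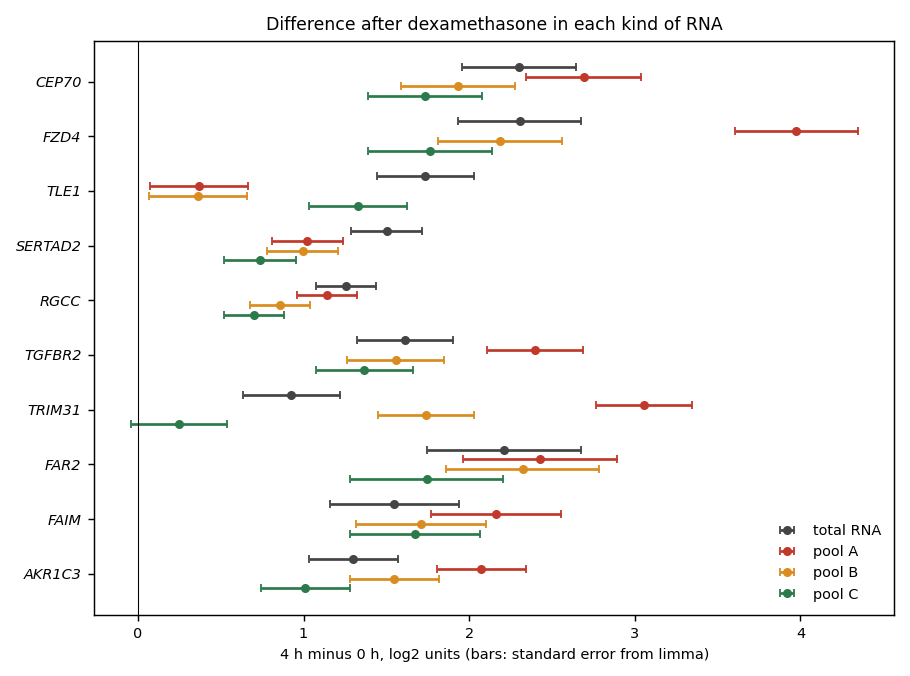
Difference between 4 h and 0 h of dexamethasone for each gene (rows) in total RNA, pool A, pool B and pool C (colours), in log2 units, with the standard error from limma as bars and 2 arrays in each group. The pool A point lies farthest right for FZD4 (3.98) and TRIM31 (3.06), and the TLE1 points of pools A and B lie near 0.37 and 0.36; points whose untreated arrays were below background are measured values, not lower bounds.

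In the fit over all genes, 5 of the 10 genes (CEP70, FZD4, TLE1, SERTAD2 and RGCC) were among the genes called higher at 4 h in total RNA (adjusted p under 0.05, limma with Benjamini-Hochberg adjustment), where 0.0886% of all genes were. In pool A, 9 of 10 (all but TLE1) were called higher, where 0.63% of all genes were. In pool B 0.0295% and in pool C 0.0689% of all genes were called higher, and 0 of the 10 were in either, with 681 and 603 of all genes at an unadjusted p under 0.05. Nothing is read from any of these counts, since the genes were picked on the same contrasts. The total RNA calls were all lost when any single array of the 4 was left out, and the pool A count fell to 5 without the treated N array. In the authors' deposited value table all 40 differences kept their sign, 37 of 40 were smaller, and the median over the 40 was 1.02, beside 1.64 as computed here.

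**Figure D3:**
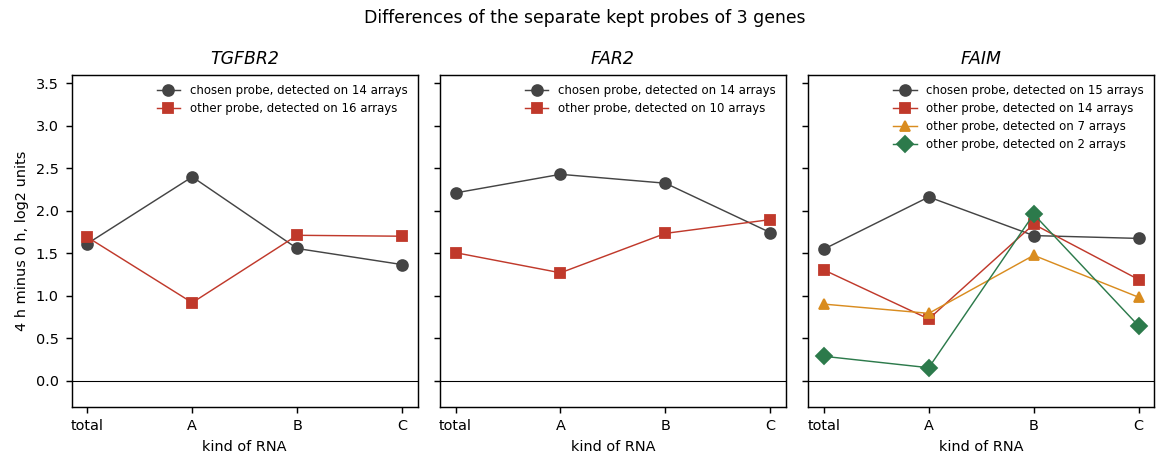
Difference between 4 h and 0 h (vertical axis, log2 units) in each kind of RNA (horizontal axis) for the separate probes of TGFBR2, FAR2 and FAIM that passed the filter, joined by lines for each probe. In pool A the chosen probe of each gene gives 2.40, 2.43 and 2.16, above its other probes, while the probes lie closer together in pool B.

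The next question was where the transcripts of the 10 genes lay among the kinds of RNA once the hormone had acted. These contrasts compare treated arrays with each other, and the same arrays picked the genes: a gene taken for a high 4 h level in a pool is thereby likelier to lie high in that pool. TRIM31 and TLE1 also passed the filter on dim probes through some of these groups alone. The values are therefore given as a description, with no p for any of the 10 genes, and they are relative levels, since each array was scaled to the same distribution. Against total RNA at 4 h, 45.9% of all genes differed in pool A, 44.1% in pool B and 29.9% in pool C (adjusted p under 0.05), and 5, 3 and 3 of the 10 genes did. Nothing is read from these counts. With median scaling in place of quantile normalization the split of higher against lower calls moved. Pool A had 1903 higher and 2762 lower genes with quantile normalization, and 804 higher and 4801 lower with median scaling. Pool B had 1876 higher and 2610 lower with quantile normalization, and 957 higher and 4243 lower with median scaling. Pool C had 1428 higher and 1606 lower with quantile normalization, and 3135 higher and 1105 lower with median scaling. The median over all genes was -0.16, -0.12 and 0.06 in pools A, B and C with the first scaling and -0.62, -0.48 and 0.35 with the second.

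In pool A at 4 h, FZD4, SERTAD2 and TRIM31 lay above total RNA at 4 h. FZD4 averaged 8.90 in pool A and 6.97 in total RNA, a difference of 1.93 ± 0.37 log2 units. SERTAD2 was higher by 1.70 ± 0.22 and TRIM31 by 2.15 ± 0.29. For all 3 genes both pool A arrays lay above both total RNA arrays. TLE1 and FAIM lay lower in pool A than in total RNA. TLE1, not above background in pool A, was at least 1.56-fold lower. FAIM had a difference of -1.48 ± 0.39, while the median over the FAIM probes gave -0.31. With quantile normalization the differences of CEP70 (0.81 ± 0.34), RGCC (0.38 ± 0.18), TGFBR2 (-0.36 ± 0.29), FAR2 (-0.29 ± 0.46) and AKR1C3 (-0.06 ± 0.27) were smaller. With median scaling they were 0.05, -0.26, -1.08, -1.04 and -0.82 in the same order, beside a median over all genes of -0.62. The second TGFBR2 probe gave -0.66 and the other FAR2 probe -1.003 with quantile normalization, both without overlap of the arrays. The size of these differences thus depends on the scaling and, for TGFBR2 and FAR2, on the probe.

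In pool B, RGCC was higher than in total RNA at 4 h by 1.23 ± 0.18, with 11.79 and 11.80 on the pool B arrays and 10.66 and 10.48 on the total RNA arrays. TLE1 was at least 1.57-fold lower, and AKR1C3 differed by -0.96 ± 0.27. In pool C, AKR1C3 lay higher than in total RNA by 0.85 ± 0.27, SERTAD2 differed by -0.71 ± 0.22 and TRIM31 was at least 1.28-fold lower. The arrays of both groups did not overlap for any of these 6 values. With median scaling the SERTAD2 difference in pool C was -0.05.

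Setting pool C against pool A at 4 h split the 10 genes. FAIM, TLE1, AKR1C3 and TGFBR2 were among the 33.3% of all genes called higher in pool C, and TRIM31, FZD4, SERTAD2 and RGCC among the 23% called lower, again with nothing read from the counts. TRIM31 read 5.11 and 4.98 in pool C and 8.02 and 8.23 in pool A, at least 5.69-fold lower in pool C. Its difference was -2.24 with the larger offset and -1.28 in the deposited value table, both smaller in size than that bound. FZD4 read 6.68 and 6.18 in pool C and 9.51 and 8.29 in pool A, a difference of -2.47 ± 0.37. SERTAD2, with a difference of -2.42 ± 0.22, and RGCC, with -0.86 ± 0.18, lay lower too. On the other side FAIM read 10.06 and 10.22 in pool C and 7.80 and 8.39 in pool A, a difference of 2.04 ± 0.39. The FAIM probe detected on 14 arrays gave 1.41. TLE1 was at least 1.86-fold higher in pool C. AKR1C3 was higher by 0.90 ± 0.27 and TGFBR2 by 0.78 ± 0.29, with 1.12 for the second TGFBR2 probe. FAR2 (0.35 ± 0.46) and CEP70 (-0.33 ± 0.34) had arrays that overlapped between the pools, and the other FAR2 probe gave 1.26 without overlap. In the authors' deposited value table RGCC was at -0.40 and CEP70 at 0.09, so the side of 0 turned for CEP70.

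The median of all genes in this contrast depends on the scaling: it was 0.20 after quantile normalization and 0.99 after median scaling. Under median scaling RGCC stood at 0.40 and CEP70 at 0.90, so their side of 0 turned. Relative to the median of all genes RGCC was at -1.06 with the main scaling and -0.59 with median scaling, and CEP70 at -0.54 and -0.09. FZD4, SERTAD2 and TRIM31 stayed below 0 and below that median, and FAIM, TLE1, AKR1C3 and TGFBR2 above both, under either scaling. The split of all genes was 3380 higher and 2336 lower with quantile normalization, and 6066 higher and 1188 lower with median scaling.

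The same contrast at 0 h, added after the data were seen, called 55.5% of all genes and 4 of the 10 genes (FAIM, AKR1C3, TGFBR2 and SERTAD2). The untreated arrays picked the genes too, since a low untreated level was part of the choice. These values are therefore a description as well, and nothing is read from the calls. FAIM was higher in pool C than in pool A by 2.53 ± 0.39, and by 0.94 for the FAIM probe that was detected on all 4 of these arrays. AKR1C3 was higher by 1.96 ± 0.27. For TGFBR2 the probes disagreed in size: the chosen probe, below background in pool A, gave 1.81 ± 0.29, and the second probe, detected on all 4 arrays, gave 0.34 with overlapping arrays. SERTAD2 lay lower in pool C, with a difference of -2.13 ± 0.22. FZD4, TLE1 and TRIM31 were below background in both pools at 0 h, so no order of the pools can be given for them there. RGCC (-0.41 ± 0.18), CEP70 (0.62 ± 0.34) and FAR2 (1.03 ± 0.46) were not called. The side of 0 turned for RGCC under median scaling (1.07) and in the authors' deposited value table (0.33). The split of all genes was 3472 higher and 2173 lower with quantile normalization, 6543 higher and 920 lower with median scaling, and 4297 higher and 1282 lower in the authors' deposited value table. Whether the pool C to pool A position differed between 4 h and 0 h was not tested, since that difference is built on the values that chose the genes.

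**Figure D4:**
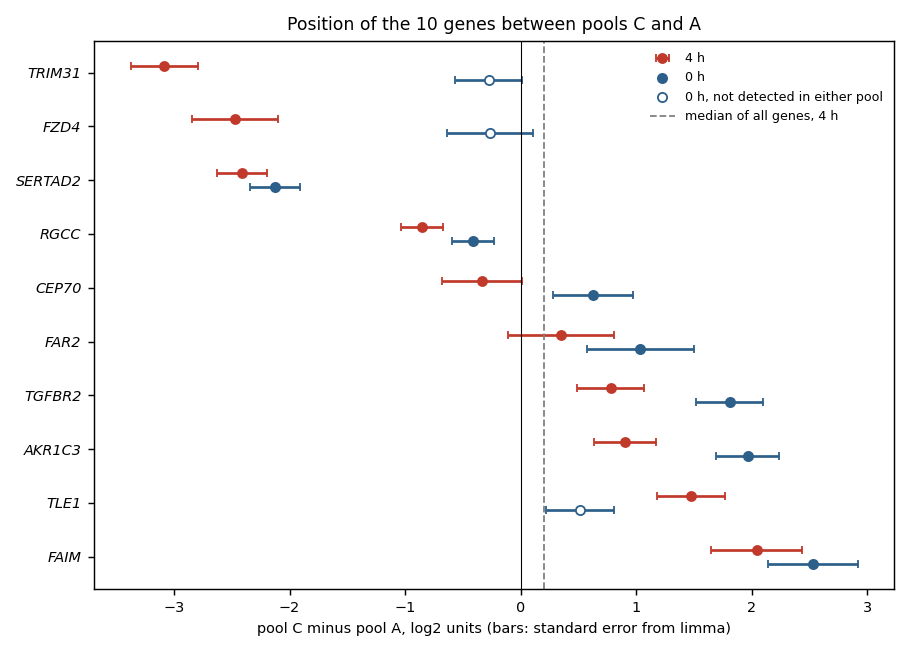
Pool C minus pool A for each gene (rows) at 4 h and 0 h (colours), in log2 units, with the standard error from limma as bars. TRIM31, FZD4 and SERTAD2 lie left of -2 at 4 h and FAIM right of 2. The dashed line is the median of all genes at 4 h (0.20), and open circles mark genes below background at 0 h in both pools. All points are measured values, not lower bounds. At 4 h the plotted probe was below background in pool C for TRIM31 and in pool A for TLE1. At 0 h that of TGFBR2 was below background in pool A.

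Relatives and partners of the 10 genes were examined in 10 lists, with 177 genes listed, 167 on the array and 122 tested. In the 4 comparisons of 4 h against 0 h, 1 relative was called higher and 0 lower, beside the 0.0886%, 0.63%, 0.0295% and 0.0689% of all genes called higher in total RNA, pool A, pool B and pool C. The gene called was TRIM5, a ubiquitin ligase that restricts retroviruses, in pool A, where it read 5.59 and 6.06 at 4 h, against 4.63 and 4.67 at 0 h. Its measured difference was 1.18 ± 0.24 (adjusted p = 0.0402, limma), but 1 of the 2 treated arrays and neither untreated array was above background there, and its bound gives no fold. The TRIM5 call was lost without any single array of the 4 (adjusted p between 0.0867 and 0.16) and in the authors' deposited value table (0.40, adjusted p = 0.235). The other 21 TRIM genes tested did not pass in any kind of RNA, among them TRIM4 (0.25, 0.43, 0.43 and 0.05 in total RNA, pool A, pool B and pool C), TRIM44 (-0.14, -0.03, 0.01 and -0.02) and TRIM8 (-0.38, -0.14, -0.25 and -0.06). In pool A 7 of the 22 TRIM genes tested had an unadjusted p under 0.05 (limma), beside 1318 of the 10163 genes tested. In total RNA, pool B and pool C 2, 3 and 2 of the 22 did.

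None of the 9 tested Wnt receptors and coreceptors beside FZD4 passed in any kind of RNA, with medians of -0.07 in total RNA, -0.08 in pool A, -0.09 in pool B and -0.02 in pool C, and 0 to 1 genes at an unadjusted p under 0.05 in each. FZD7, the frizzled receptor with the highest mean over all arrays, differed between 4 h and 0 h by -0.08, -0.26, -0.05 and -0.13 in total RNA, pool A, pool B and pool C, the coreceptor LRP5 by -0.10, -0.08, 0.52 and -0.01, and the atypical receptor RYK by 0.00, -0.23, -0.09 and -0.30. Of 11 nuclear and scaffold components of the pathway tested beside TLE1, 0 passed. LEF1, a DNA-binding partner of TLE proteins, differed by -0.37, -0.05, -0.02 and -0.11, the scaffold AXIN1 by -0.06, -0.05, -0.23 and -0.02 and the kinase GSK3B by -0.01, -0.08, 0.10 and 0.01.

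Among 10 TGF-beta pathway genes tested beside TGFBR2, 0 passed: the signal transducers SMAD5 (0.12, 0.19, -0.05 and -0.29 in total RNA, pool A, pool B and pool C) and SMAD4 (0.17, 0.40, 0.50 and 0.12) and the inhibitor SMAD7 (-0.11, 0.15, -0.17 and 0.08) had the highest means over all arrays. Of 10 SERTAD and E2F genes 0 passed, with TFDP1, a dimer partner of E2F proteins, at 0.07, -0.12, 0.01 and 0.39, E2F2 at 0.12, 0.17, -0.17 and -0.03 and E2F4 at -0.02, 0.17, -0.05 and -0.30. Of 26 centrosome genes 0 passed. Their medians were 0.17 in total RNA, 0.14 in pool A, -0.01 in pool B and 0.04 in pool C, and gamma-tubulin (TUBG1) was at 0.16, 0.15, 0.22 and -0.09. All 11 genes of the CDK1 list were tested and 0 passed. In pool A 10 of 11 had a positive difference, with a median of 0.19 beside 0.04 over all genes. That median over all genes depends on the scaling, and was 0.22 with median scaling, so no trend is read from these signs. CDC25B, a phosphatase that activates CDK1, differed by -0.14, -0.14, -0.02 and 0.43, the inhibitor CDKN1A by -0.29, 0.11, -0.27 and -0.68 and the cyclin CCNB2 by 0.25, 0.54, 0.15 and 0.10.

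For the enzymes, 0 of 6 ether lipid genes passed beside FAR2. GNPAT, which starts ether lipid synthesis in peroxisomes, differed by 0.07, -0.03, 0.15 and 0.15 in total RNA, pool A, pool B and pool C, and PEX5, the receptor that imports peroxisomal enzymes, by -0.19, -0.09, -0.47 and -0.09. Of 11 aldo-keto reductases and 17-beta-hydroxysteroid dehydrogenases tested beside AKR1C3, 0 passed. AKR1D1, a steroid reductase, differed by 0.26, -0.21, -0.13 and -0.65, HSD17B12, an enzyme of fatty acid elongation, by 0.65, 0.46, 0.55 and 0.03, and AKR7A2 by 0.17, 0.47, 0.25 and 0.20. Of 6 Fas pathway genes 0 passed. CFLAR, the inhibitor of caspase-8 known as c-FLIP, was at 1.41, 0.81, 1.20 and 0.28, with unadjusted p values of 0.0101 in total RNA and 0.0236 in pool B, while the adaptor FADD was at -0.09, 0.30, 0.16 and -0.07 and BID at -0.17, 0.01, -0.23 and -0.32. A p that misses the threshold does not show that these relatives kept their level.

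Across the 16 arrays the 10 genes correlated with each other to unequal degrees, with a median Pearson r of 0.60 over 45 pairs and a range of -0.16 to 0.91; all points share the treatment by which the genes were picked. FZD4 and CEP70 had the highest r (0.91), and FAIM and SERTAD2 the lowest (-0.16). The 5 other genes whose profile over the 16 arrays was most like the mean standardized profile of the 10 genes were GCSAM (r = 0.963), FOXO1 (0.945), ITSN1 (0.942), MEI1 (0.939) and MYB (0.921). GCSAM, a signalling protein of germinal centre B cells, read 8.29 and 7.81 at 4 h, against 6.37 and 6.41 at 0 h in total RNA. In pool A GCSAM read 8.82 and 7.89 at 4 h, against 6.11 and 6.72 at 0 h. The treated arrays were above the untreated in both, and the treated N array was the higher, as for FZD4 and CEP70. FOXO1, a forkhead transcription factor, read 9.06 and 8.64 at 4 h, against 7.36 and 7.57 at 0 h in total RNA. MYB, a transcription factor of blood progenitors, read 11.75 and 11.79 at 4 h, against 10.67 and 11.26 at 0 h in total RNA. These genes were chosen by their likeness, so no test is given for them.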

How the data were processed

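MM1.S RNA was measured on 16 Illumina arrays, 2 in each of 8 groups. Per the file headers, the authors deposited for each of 47323 probes and each array a non-normalized linear intensity and a detection p-value. They also deposited a table of normalized log2 values, whose log2 scale was read from its values and whose normalization and centring stay unknown; column medians were 7.21 in total RNA and 7.24 to 7.41 in the pools, and its 4 total RNA columns share their sorted values while the 12 pool columns do not, so it was used only for comparisons of 4 h with 0 h and of pools with each other. Column names of the intensity table give the group but not the replicate number. Probe names came from GEO's platform annotation: 30113 probes had 1 gene symbol, 8 had several and 17202 were unnamed here, and 30074 annotated probes matched RefSeq by gene ID.

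Intensities were corrected with limma 3.58.1 in R 4.3.3 (nec, normexp on detection p-values, offset 16), taken to log2 and quantile-normalized. Probes with detection p under 0.01 on at least 2 arrays were kept (17269), and the kept probe with the highest mean stood for its gene. A mean for each of the 8 groups was fitted to 10163 genes with eBayes (8 residual and 5.36 prior degrees of freedom), with Benjamini-Hochberg adjustment over all genes and a threshold of 0.05. The fit was tested on simulated data. The same fit compared kinds of RNA, but since its arrays also chose the 10 genes, no p is given for them. A standard error is limma's. The small number of arrays limits the precision. The members, gene lists and tests were chosen with earlier results of these data known. Named relatives were those called or, otherwise, up to 3 with the highest mean over all arrays in their list. The alternatives covered offset, scaling, deposited values, filter, probe choice, arrays in the fit, single arrays left out, untreated X arrays left out and replicate blocks. Promoter windows came from RefSeq (GRCh38.p14).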

Additional observations from a re-analysis of the deposited data

How the results depend on the processing

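Under alternatives other than leaving out 1 array, every difference of the 10 genes between 4 h and 0 h kept its sign, while 302 of these values moved by less than the spread between arrays and 90 by more. Part of the 302 could not move. The prefix as a replicate block, or a fit of the arrays of both groups alone, leaves a difference of group means unchanged. These counts therefore do not measure robustness. With 1 array left out, 159 of 160 kept their sign, the exception being TLE1 in pool A. For contrasts between kinds of RNA at 4 h, 325 of 332 kept their sign, and 150 of 160 with 1 array left out. Leaving out the untreated X arrays could not move these contrasts, which hold treated arrays alone. For pool C against pool A at 0 h the counts were 94 of 98 and 40 of 40. Under median scaling the side of 0 turned for CEP70 (0.90) and RGCC (0.40) in pool C against pool A at 4 h, and for RGCC at 0 h (1.07). Against total RNA at 4 h it turned for RGCC in pool A (-0.26) and pool C (0.14) and for FAIM in pool B (-0.42). In the deposited value table the side turned in pool C against pool A for CEP70 at 4 h (0.09) and RGCC at 0 h (0.33). Median scaling put the median over all genes in pool C against pool A at 0.99 at 4 h (0.20 with quantile normalization). At 0 h that median was 1.16 (0.26).

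The number of the 10 genes called higher at 4 h in total RNA was 5, among 9 of all genes called higher. It was 3 with median scaling and 2 in the deposited value table, among 3 and 6 of all genes. With no filter on dim probes it was 3 among 9. With only the 4 arrays of both groups in the fit it was 8 among 17. Fewer were called without the 4 untreated X arrays, and none whichever single array was left out. In pool A the count was 9, among 64 of all genes called higher. It was 0 with only the arrays of both groups, where 0 of all genes were called and 789 had an unadjusted p under 0.05. It fell when some of the arrays were left out singly. In pool B the count of 0, with 3 of all genes called higher, became 1 with the median over probes, among 4. In pool C the count of 0, with 7 of all genes called higher, became 3 with median scaling, among 11. In the value table it was 2 among 7. In pools B and C the count also changed without the untreated X arrays. For pool A against total RNA the count of 5 became 3 among probes detected on at least 8 arrays, which tests 8 of the 10 genes. All genes called higher and lower there numbered 1903 and 2762, and 1707 and 2581 with that filter. For pool C against total RNA the count of 3 became 5 with median scaling. All genes called higher and lower went from 1428 and 1606 to 3135 and 1105. The count fell when any single array was left out. At 0 h, pool C against pool A called 4, and 7 with median scaling. All genes went from 3472 higher and 2173 lower to 6543 and 920. Nothing is read from these counts. The causes were not tested. The contrasts of a pool with total RNA were not run in the value table, since its 4 total RNA columns share their sorted values and its pool columns do not, and its normalization is unknown.

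The labels do not say that equal replicate numbers mark a shared batch. Deviations of arrays with the same prefix correlated at 0.28, 0.34, 0.26 and 0.35 in the comparisons of 4 h with 0 h in total RNA, pool A, pool B and pool C. With the prefix as a replicate block, 9 of the 10 genes were called in total RNA, 6 in pool B and 4 in pool C. All genes called higher and lower in total RNA numbered 40 and 10, against 9 and 2 without the block. Those called higher numbered 12 in pool B and 23 in pool C, against 3 and 7. For pool C against pool A at 0 h the block called 6 of the 10 genes, against 4 without it, and the prefix correlation was 0.31. All genes called higher and lower there numbered 3781 and 2365 with the block, against 3472 and 2173. With the replicate number as a block in the value table the counts in total RNA, pool B and pool C were 8, 2 and 4, among 49, 15 and 34 of all genes called higher. Probes near background limit FZD4, TLE1 and TRIM31: a normexp offset of 50 made all 40 differences smaller, 9 of them by over 1.5 times, and the deposited value table made 21 of 40 smaller by over 1.5 times.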

Other observations

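The plasma cell marker IRF4 is a transcription factor. In pool A it differed by -1.51 log2 units between 4 h and 0 h (adjusted p = 0.0253, limma). There 0.246% of all genes were called lower. The other 8 markers did not pass in pool A, and none of the 9 passed in total RNA, pool B or pool C. The genes called lower in pool A numbered 25, but 2 with median scaling and 1 in the deposited value table. FZD4-DT, the noncoding transcript that starts beside FZD4 in RefSeq, was read by a probe that was detected on no array. AKR1C4, a liver-type relative of AKR1C3 detected on 6 arrays, differed between 4 h and 0 h by 1.14 in total RNA, 0.21 in pool A, -0.01 in pool B and 0.81 in pool C, none of which passed (adjusted p between 0.872 and 0.998). These genes were named after their values were seen.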
